A study of Danio rerio with 2 samples.

Results

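The levels of 9 transcription factors of macrophages and dendritic cells were measured: *spi1a*, *spi1b*, *cebpa*, *cebpb*, *cebpd*, *batf3*, *zbtb46*, *id2a* and *tcf4*. They were read from 2 zebrafish RNA-seq libraries. The genes were taken by symbol, and each matched 1 gene of the 32520 counted. *spi1b* and *id2a* carry the names *SPI1* and *ID2* in the gene names used, where *spi1a* and *id2b* are separate genes.

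The first library came from lymphocytes sorted from the thymi of juvenile Tg(cd8a:EGFP) zebrafish, untreated and labelled as positive for both lck:mCherry and EGFP. The second came from EGFP+ myeloid cells sorted from melanoma of zebrafish after 24 h of SB431542, an inhibitor of TGF-β receptors. The labels give both groups an age of 6 weeks after fertilization, and the methods give another age for the thymus donors. In both groups EGFP is driven by a cloned region upstream of *cd8a*. The tumor donors also carried BRAF V600E and lacked p53 and *nacre*. The nacre mutation removes *mitfa*, and in the study's main tumor model melanocytes return through an injected *mitfa* minigene. The number of fish behind each library is not given in the sources used here. Tissue, cell type, genotype and drug all differ between the libraries and cannot be told apart.

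PU.1, the product of *spi1b*, is an ETS factor that in vertebrates directs blood progenitors toward the myeloid fate. It acts together with the C/EBP factors, which are needed for granulocytes and for inflammatory gene expression in macrophages. In mice BATF3 and ID2 are needed for the classical dendritic cells that cross-present antigen to CD8+ T cells, and ZBTB46 marks classical dendritic cells. TCF4, also called E2-2, is an E protein needed in mice for plasmacytoid dendritic cells, and ID proteins bind E proteins and keep them off DNA.

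There were 32975680 reads on genes in thymus lymphocytes and 39446435 in myeloid cells. Levels are CPM, the reads of a gene per 1000000 reads on genes, without scaling for gene length, so a level is compared only with the level of the same gene in the other library. Intervals are exact 95% binomial intervals of the counting error alone, and copies of 1 molecule made by amplification could not be told from separate molecules. Each group had 1 library, so no difference has a replicate check, no test was possible, and a ratio compares these libraries. All 14 T cell markers were at 1 CPM or more in the thymus library, and 2 of 14 were in the myeloid library. That level was reached by 12932 and 10719 of all 32520 genes, in the same order. Of 24 mononuclear phagocyte genes 14 were at 1 CPM or more in the myeloid library, with a summed 3823 CPM. Most of that sum, 2604 CPM, came from *lgmn*. Melanocyte genes were abundant there too, at a summed 24863 CPM (10 of 14 genes at 1 CPM or more) against 1.52 CPM in the thymus library. B cell, erythroid and keratinocyte genes summed to 40.5, 31.5 and 234 CPM in the myeloid library, against 11.3, 0.455 and 36.5 CPM. Neutrophil genes summed to 837 CPM there, against 510 CPM in the thymus library. The part of all these cells in the levels below was not tested. In RNA from a pool, fewer cells of a type and less RNA per cell cannot be told apart.

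Of the 9 genes, 2 were at least 4-fold higher in the myeloid library, *spi1b* and *cebpd*, and 2 were at least 4-fold higher in the thymus library, *cebpb* and *zbtb46*. The latter count was 0 with library sizes from edgeR's TMM method, which keeps a few abundant genes from shifting the rest, and 0 with DESeq2 size factors. It stayed 2 when the 10 genes with most reads in each library were left out of the library sizes. A level of 1 CPM in at least 1 library was reached by 15139 genes, of which 21.9% were that much higher in myeloid cells and 39.2% in thymus lymphocytes. The remaining 4 genes that reached 1 CPM, *cebpa*, *batf3*, *id2a* and *tcf4*, stayed under 4-fold, and *spi1a* did not reach 1 CPM in either library. *spi1b* reached 1 CPM through the myeloid library alone. Counts and shares are set side by side as a description only.

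**Figure D1:**
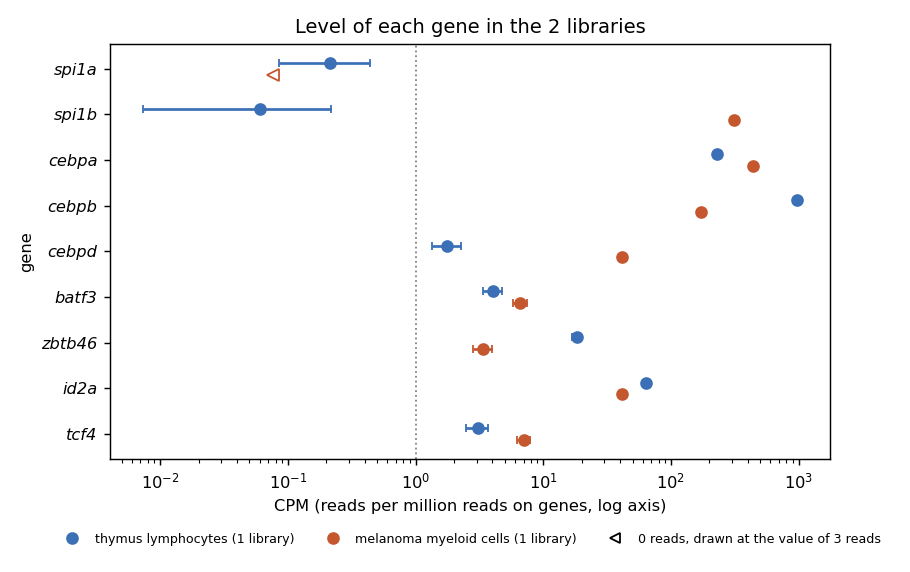
Level of each gene in the thymus (blue) and melanoma myeloid (orange) library, in CPM on a log axis, with bars for the 95% counting interval and a dotted line at 1 CPM. *spi1b* and *cebpd* lay far higher in the myeloid library, *cebpb* and *zbtb46* lay higher in the thymus library, and *spi1a* was near the floor in both.

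Of the 9 genes, the PU.1 gene *spi1b* separated the libraries most. It (ENSDARG00000000767) had 2 reads in thymus lymphocytes and 12374 in myeloid cells, or 0.0607 CPM (0.00735 to 0.219) and 314 CPM (308 to 319). The ratio was 5172, with a counting interval from 1431 to 42712 that is wide because of the 2 thymus reads. With counts of 3 or fewer set at 3 in every gene, its ratio was 3448, and 0.139% of all genes at 1 CPM or more had a higher ratio. Its paralog *spi1a* (ENSDARG00000067797) had 7 reads in thymus lymphocytes and 0 in myeloid cells, where the exact interval of 0 reads reaches 0.0935 CPM. The reads of zebrafish PU.1 genes in the myeloid library thus came from *spi1b*. Another gene, *si:ch73-314g15.3*, overlaps *spi1b* in the RefSeq annotation of another assembly, and it had 13 reads in thymus lymphocytes and 219 in myeloid cells.

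Apart from *spic*, the other ETS genes that reached 1 CPM were lower in the myeloid library, also with TMM. Of 16 ETS genes, which include the PU.1 genes, 13 reached 1 CPM in either library. Of these 13, 2 were at least 4-fold higher in myeloid cells and 7 in thymus lymphocytes. The shares over all genes at that level were 21.9% and 39.2%. With TMM these counts were 2 and 4, where the shares over all genes were 26.8% and 34.1%. The 2 were *spi1b* and *spic*, a PU.1 relative known in mice from iron-recycling macrophages, with 0 and 84 reads. *elf1* fell from 866 CPM in the thymus library to 60.1 CPM in the myeloid library, and *ets2* from 672 to 50.3 CPM. *elk1* went from 81.3 to 15.4 CPM and *elf2a* from 69.7 to 17.2 CPM, while *elk4* had 1223 reads and 1 read. With TMM, *elk1* and *elf2a* were under 4-fold apart. *ets1*, a factor of lymphocytes, was at 208 and 81.4 CPM, which is under 4-fold.

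The C/EBP factors did not move together. *cebpa* (ENSDARG00000036074), which in mice is needed to form granulocyte and macrophage progenitors, had 7517 reads in thymus lymphocytes and 17238 in myeloid cells. These are 228 CPM (223 to 233) and 437 CPM (430.5 to 444), a ratio of 1.92 (1.87 to 1.97). *cebpb* (ENSDARG00000042725), a factor of inflammatory gene expression in macrophages, had 31763 and 6822 reads, or 963 CPM (953 to 974) and 173 CPM (169 to 177). It was 5.57-fold (5.43 to 5.72) higher in the thymus library, or 3.72-fold with TMM. *cebpd* (ENSDARG00000087303), which in mammals is induced by inflammatory signals, had 58 and 1625 reads, or 1.76 CPM (1.34 to 2.27) and 41.2 CPM (39.2 to 43.2). It was 23.4-fold (18.0 to 31.0) higher in the myeloid library.

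A comparison of 1 gene with another gene of its family across the libraries does not depend on library size, and gene length cancels where the same transcripts are counted. By this measure, *cebpd* shifted 130.4-fold (100.3 to 169.7) toward the myeloid library relative to *cebpb*, and *cebpa* shifted 10.7-fold (10.3 to 11.1) relative to *cebpb*. The C/EBP genes of the myeloid library therefore differed in their proportions, whichever scaling was used. Of the other C/EBP genes, the zebrafish myeloid gene *cebp1* had 3 reads in thymus lymphocytes and 202 in myeloid cells. *cebpg*, the neighbor of *cebpa* on the chromosome, was at 722 and 419 CPM, and *cebpz* was at 240.2 and 192 CPM.

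Markers of other myeloid cells were read in the thymus library beside *cebpa* and *cebpb*. Of the 24 phagocyte genes, 3 were at 1 CPM or more there, *lgmn* at 43.4 CPM, *slc7a7* at 35.4 CPM and *havcr1* at 7.22 CPM, and 11 were at 0 reads. The list summed to 87.0 CPM, against 3823 CPM in the myeloid library, of which *lgmn* had 2604 CPM. Within it, the 3 *mpeg1* genes had 6 thymus reads together and the 3 C1q genes had 0. The neutrophil list summed to 510 CPM in thymus lymphocytes and 837 CPM in myeloid cells, with 4 and 7 of its 7 genes at 1 CPM or more. Most of the thymus sum came from a *lect2* gene (ENSDARG00000090889), at 373 CPM, and from *mmp9*, at 132 CPM, while *lyz*, *npsn* and *mmp13a* had 1 read together. In the myeloid library *lyz*, *npsn* and *mmp13a* had 8503 reads together, or 216 CPM. Of these reads *mmp13a* had 7053, *npsn* 1152 and *lyz* 298. The largest part of the myeloid sum came from *mmp9*, at 440 CPM. The neutrophil marker *mpx* had no match by symbol. The part of these cells in the levels of the C/EBP genes was not tested.

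**Figure D2:**
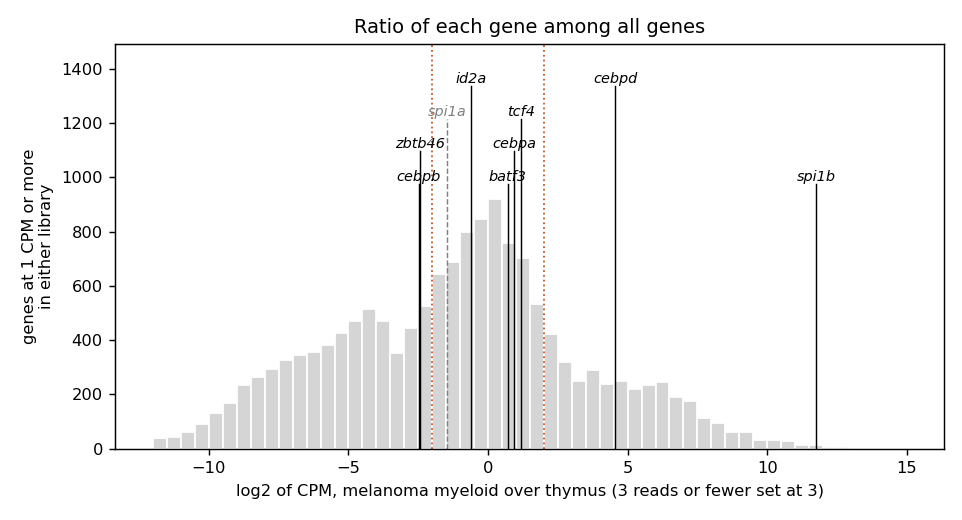
Number of genes (y axis) by the log2 ratio of CPM, melanoma myeloid over thymus (x axis, bins of 0.5, ends pooled), for the 15139 genes that reached 1 CPM, with a line for each of the 9 genes and dotted lines at a ratio of 4 in either direction. *spi1b* stood in the right tail, while *cebpb* and *zbtb46* lay just past the left dotted line, and *spi1a* (dashed) was below 1 CPM in both libraries.

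The factors named for dendritic cells differed from one another. *batf3* (ENSDARG00000042577) had 133 reads in thymus lymphocytes and 260 in myeloid cells, or 4.03 CPM (3.38 to 4.78) and 6.59 CPM (5.81 to 7.44), a ratio of 1.63 (1.32 to 2.03). *zbtb46* (ENSDARG00000078191) had 604 and 133 reads, or 18.3 CPM (16.9 to 19.8) and 3.37 CPM (2.823 to 3.996), and was 5.43-fold (4.50 to 6.60) higher in the thymus library, or 3.63-fold with TMM. The level of *batf3* was thus higher in the myeloid library by less than 4-fold, and that of *zbtb46* was lower. Relative to *zbtb46*, *batf3* shifted 8.88-fold (6.70 to 11.8) toward the myeloid library.

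BATF factors have no activation domain and bind DNA with a JUN partner, often beside IRF4 or IRF8. The T cell factor *batf* had 877 reads in thymus lymphocytes and 0 in myeloid cells, at least 349.7-fold lower against a floor of 3 reads in that library, which leaves *batf3* as the *batf* gene with more than 1 read there. Both *junb* genes were higher in the myeloid library, at 878 against 91.7 CPM (ENSDARG00000074378) and 4444 against 523 CPM (ENSDARG00000104773), ratios of 9.57 and 8.50. *jun* was at 684 CPM in thymus lymphocytes and 201 CPM in myeloid cells, and *jund* at 33.7 and 53.7 CPM. Of the IRF partners, *irf8* had 46 reads in thymus lymphocytes and 349 in myeloid cells, whereas *irf4* had 1255 and 0 reads and *irf4b* had 7337 and 0 reads. These IRF genes changed more between the libraries than *batf3* did, as the ratio of *irf8* was 6.34 and those of *irf4* and *irf4b* were at least 500.4-fold and 2926-fold in the other direction against the same floor.

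**Figure D3:**
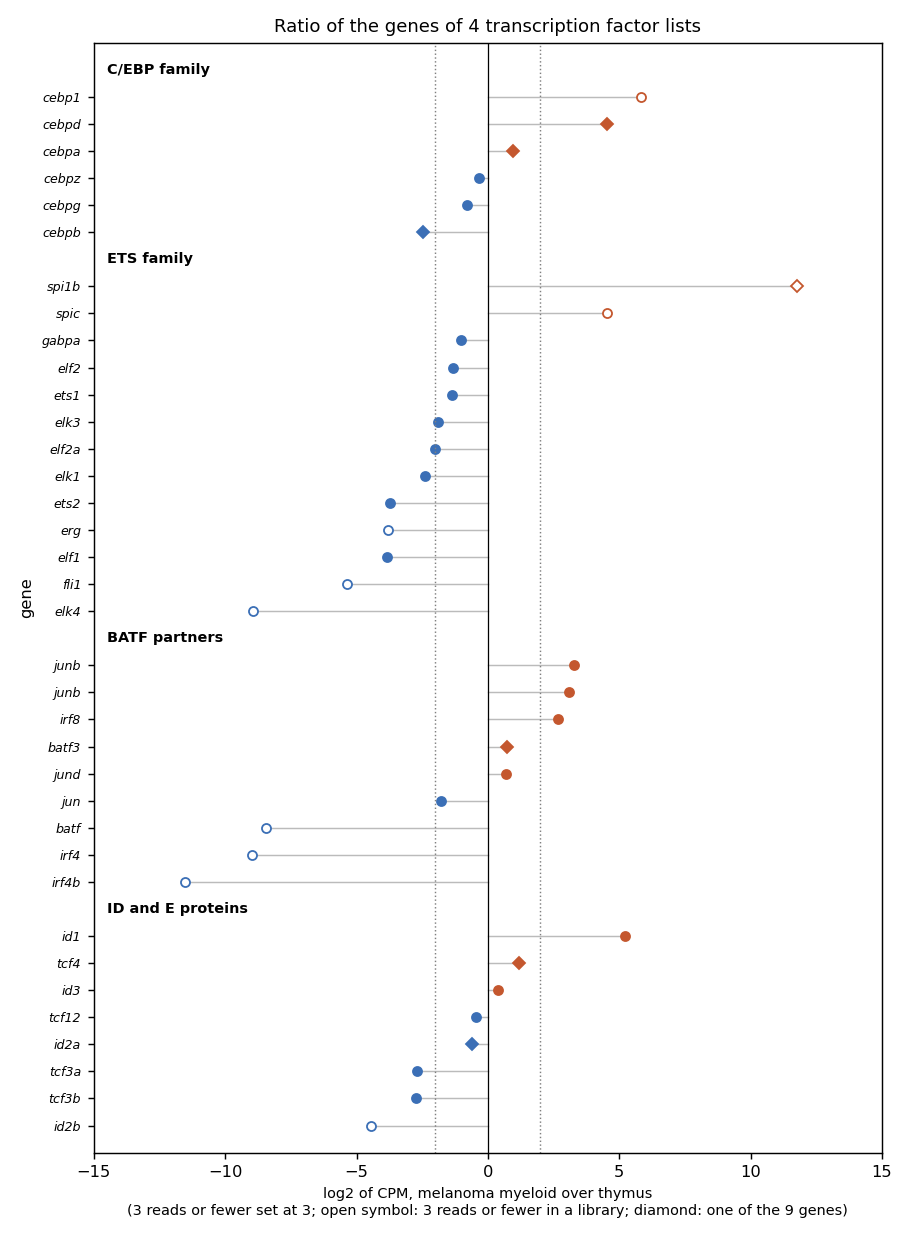
Log2 ratio of CPM, melanoma myeloid over thymus (x axis), of every gene that reached 1 CPM, from 4 lists of related transcription factors (y axis), with diamonds for the 9 genes, open symbols where a library had 3 reads or fewer, and dotted lines at a ratio of 4. In the ETS list *spi1b* and *spic* were alone on the right, and in the BATF list *irf8* and the *junb* genes lay opposite *batf* and the *irf4* genes.

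*id2a* (ENSDARG00000055283) had 2090 reads in thymus lymphocytes and 1634 in myeloid cells, or 63.4 CPM (60.7 to 66.2) and 41.4 CPM (39.4 to 43.5). It was 1.53-fold (1.43 to 1.63) higher in the thymus library, and its paralog *id2b* had 55 and 2 reads. With TMM, *id2a* was 1.02-fold higher in the thymus library, so the size of its difference rests on the scaling. The ID gene that was at least 4-fold higher in the myeloid library was *id1*, with 44 reads in thymus lymphocytes and 1961 in myeloid cells, a ratio of 37.3. *id3* was at 44.2 and 57.8 CPM, and *id4* had 0 reads in both. Relative to *id1*, *id2a* shifted by a factor of 0.0175 (0.0129 to 0.0238), which is 57.0-fold toward the thymus library.

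*tcf4* (ENSDARG00000107408) had 101 reads in thymus lymphocytes and 277 in myeloid cells. Its level was 3.06 CPM (2.49 to 3.72) and 7.02 CPM (6.22 to 7.90), a ratio of 2.29 (1.82 to 2.91). The other E protein genes were lower in the myeloid library, apart from *tcf12* with TMM. *tcf3a* and *tcf3b*, the counterparts of mammalian E2A, which is needed in early lymphocytes, were at 86.6 and 80.2 CPM in thymus lymphocytes and at 13.5 and 12.0 CPM in myeloid cells. *tcf12*, also called HEB, was at 19.9 and 14.4 CPM, and its ratio with TMM was 1.08. Relative to *tcf3a*, *tcf4* shifted 14.7-fold (11.5 to 18.8) toward the myeloid library, and relative to *tcf12* by 3.17-fold (2.46 to 4.08). Genes overlap *cebpa*, *cebpb* and *tcf4* as well as *spi1b* in the RefSeq annotation, and reads of such pairs cannot be told apart without strand.

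Scaling moved all ratios alike. With TMM the myeloid over thymus ratios of *batf3*, *cebpa*, *tcf4* and *cebpd* rose to 2.45, 2.87, 3.43 and 35.1. The median log2 ratio of the 15139 genes was −0.80, and it was −0.12 over the 14934 genes that reached 1 CPM with TMM sizes. Measured from the median gene, *cebpb* was at −1.68 and *zbtb46* at −1.64, *id2a* at 0.19, *batf3* at 1.51, *cebpa* at 1.74, *tcf4* at 1.998, *cebpd* at 5.35 and *spi1b* at 12.55 on the log2 scale. Under DESeq2 size factors *cebpb* and *zbtb46* were 3.84-fold and 3.75-fold higher in the thymus library, which like the TMM values is under the threshold of 4. The share of all calls that were higher in the myeloid library was 35.8%, and 44.0% with TMM.

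**Figure D4:**
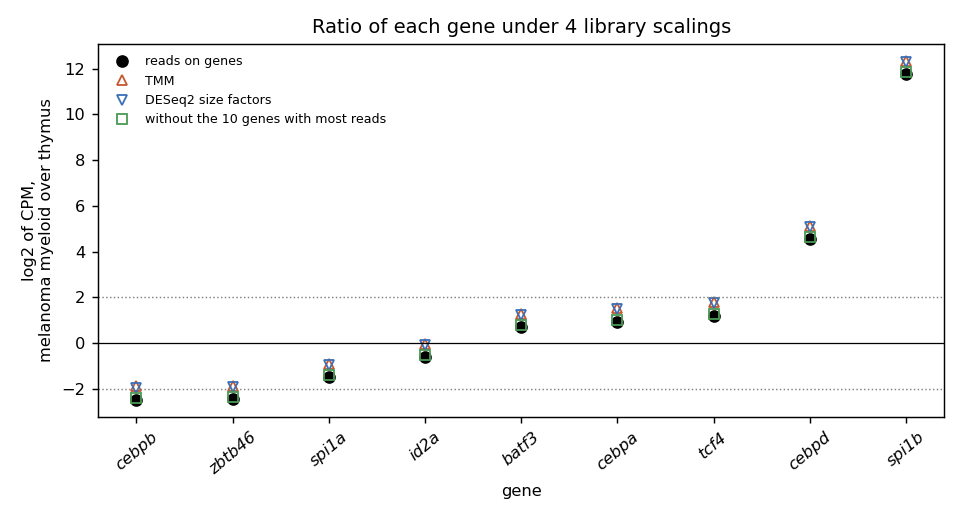
Log2 ratio of CPM, melanoma myeloid over thymus (y axis), of each of the 9 genes (x axis) under 4 library scalings, with dotted lines at a ratio of 4. No gene crossed 0, *id2a* came close to it at −0.03 with TMM, and *cebpb* and *zbtb46* moved inside the lower dotted line with TMM and DESeq2 size factors.

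Other regulators of myeloid cells were read from a list of 25 genes. Of these, 23 reached 1 CPM in either library. At least 4-fold higher in myeloid cells were 5 of the 23, and 12 were in thymus lymphocytes, or 5 and 7 with TMM. The shares over all genes at that level were 21.9% and 39.2%, or 26.8% and 34.1% with TMM. The median log2 ratio over all 25 genes, with 1 CPM added, was −1.31, against −0.73 over the 15139 genes that reached 1 CPM. Higher in the myeloid library were *tfec*, a relative of *mitfa* found in macrophages and pigment cells, with 0 and 4336 reads, and *nfil3*, a bZIP factor that in mice is needed for BATF3-dependent dendritic cells, at 2.30 and 71.7 CPM. *nfil3-5*, at 17.3 and 182 CPM, the early response gene *egr1*, at 30.7 and 177 CPM, and *irf8* were the other 3.

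Higher in the thymus library were the progenitor factor *myb*, with 7238 reads against 1, and *runx1*, at 20.6 and 1.85 CPM. *klf4*, a factor of monocytes in mice, had 812 and 0 reads, *gfi1* had 671 and 0, and *egr2* had 684 and 0. No read of *klf4*, *gfi1* or *egr2* was thus counted in the myeloid library, while *egr2a* had 86 and 18 reads and *gfi1aa* 2 and 1. The NF-κB genes *rel* and *relb*, the latter needed for some dendritic cells in mice, were at 1271 and 1052 CPM in thymus lymphocytes and at 251 and 246 CPM in myeloid cells. *stat3* was at 199 and 24.9 CPM, *bcl6* at 255 and 43.1 CPM, *mef2a* at 205 and 34.8 CPM, and a *mef2c* gene (ENSDARG00000029764) had 1079 and 4 reads. With TMM, *rel*, *relb*, *bcl6*, *mef2a* and *egr2a* were under 4-fold apart. The other *mef2c* gene (ENSDARG00000009418) had 69 and 108 reads, and *bcl6ab* was at 118 and 97.6 CPM, each under 4-fold.

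Genes that PU.1 or C/EBP factors activate in mammals were split. Of 22 genes, 17 reached 1 CPM in either library. Of these 17, 9 were at least 4-fold higher in myeloid cells and 4 in thymus lymphocytes. Of those called, *csf1ra*, *cybb*, the C1q genes, *lyz* and *tyrobp* reached 1 CPM through the myeloid library alone. *btk* and *fcer1g* did so through the thymus library alone. Such genes enter the counts only through the library where they are higher, so the counts are a description. *csf1ra* and the C1q genes are also in the phagocyte list. With TMM the counts were 10 and 2, and the shares over all genes at 1 CPM or more were those given above. The median log2 ratio over all 22 genes, with 1 CPM added, was 0.84, against −0.73 over the 15139 genes that reached 1 CPM. The C1q genes, which encode the recognition subunit of complement, had 0 reads in the thymus library, and *c1qb* and *c1qc* had 97.7 and 97.8 CPM in myeloid cells, each at least 1074-fold higher against a floor of 3 thymus reads. *cybb*, the catalytic subunit of the phagocyte NADPH oxidase and a target of PU.1, was at 0.303 and 20.6 CPM, and its partner *cyba* at 32.2 and 223 CPM. The cytokine *il1b* was at 1.79 and 14.4 CPM. These genes were higher in the same library as *spi1b*.

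Not every target was. The oxidase subunit *ncf1* was at 195 CPM in thymus lymphocytes and 57.3 CPM in myeloid cells, and *ncf4* had 3 and 0 reads. The integrin gene *itgb2* was at 87.6 and 5.93 CPM, the receptor gene *il10ra* at 294 and 53.5 CPM, and the kinase gene *btk* had 566 and 0 reads. With TMM, *il10ra* was under 4-fold apart. Of the receptors for the growth factors of macrophages and granulocytes, *csf1ra* had 2 and 319 reads, *csf1rb* had 5 and 0 reads, and *csf3r* was at 3.64 and 4.99 CPM. Within the oxidase, *ncf1* thus lay opposite *cybb* and *cyba*, though it was 3.41-fold apart, which is under 4-fold. With TMM the ratio of *ncf1* was 0.44.

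**Figure D5:**
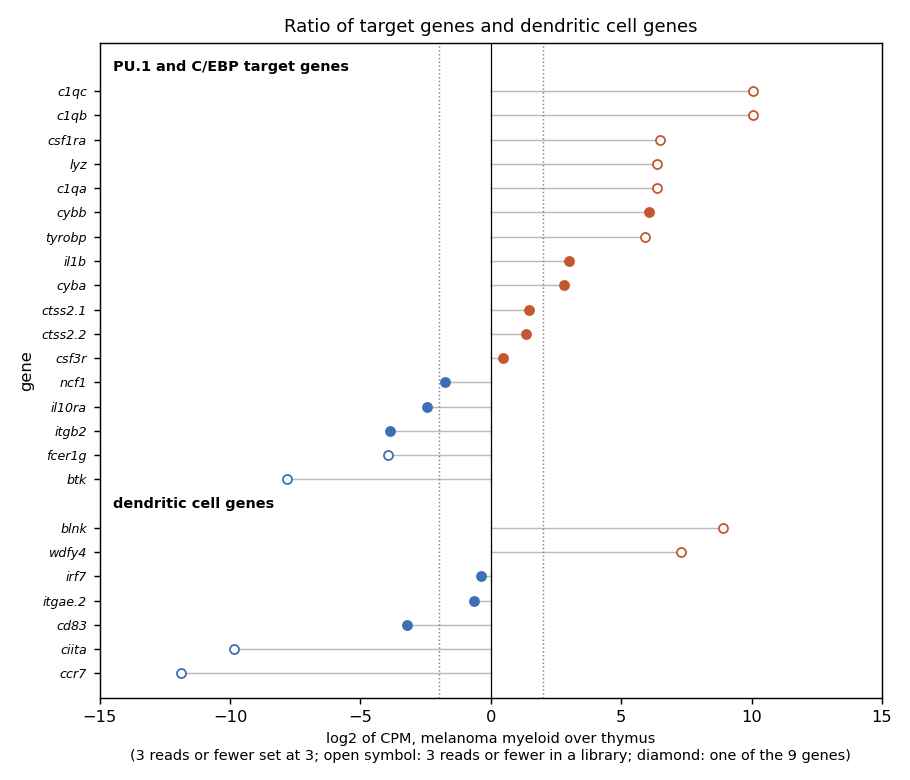
Log2 ratio of CPM, melanoma myeloid over thymus (x axis), of target genes of PU.1 and C/EBP factors and of dendritic cell genes (y axis) that reached 1 CPM, with open symbols where a library had 3 reads or fewer and dotted lines at a ratio of 4. The C1q genes, *cybb*, *blnk* and *wdfy4* lay on the right, and *btk*, *ciita* and *ccr7* on the left.

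Dendritic cell genes that might accompany *batf3*, *zbtb46* and *id2a* were read from a list of their own. Of 15 genes, 5 reached 1 CPM in thymus lymphocytes and 5 did so in myeloid cells. Among all 32520 genes counted, 12932 and 10719 reached that level, in the same order. In either library, 7 of the 15 genes reached 1 CPM. Of these 7, 2 were at least 4-fold higher in myeloid cells and 3 in thymus lymphocytes. The shares over all genes at that level were 21.9% and 39.2%. The single genes of this list were named after their values were seen. *wdfy4*, which in mice is needed for cross-presentation by BATF3-dependent dendritic cells, had 1 read in thymus lymphocytes and 568 in myeloid cells (14.4 CPM). *blnk*, an adaptor of B cells and some myeloid cells, had 2 and 1734 reads (44.0 CPM). The 3 genes that were higher in the thymus library were *ccr7*, the receptor that guides mature dendritic cells and T cells to lymph nodes in mammals, with 9404 and 0 reads, *ciita*, the activator of MHC class II genes, with 2282 and 0 reads, and the maturation marker *cd83*, at 548 and 58.4 CPM. *irf7*, which drives interferon in plasmacytoid dendritic cells, was at 604 and 465 CPM, and *tlr7* and *tlr9* had 1 and 0 reads in the myeloid library. *flt3*, the receptor for the growth factor of dendritic cells, had 2 reads there, and the 2 *xcr1* genes had 5 reads together.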

How the data were processed

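Both tables were deposited as htseq-count output, with unnormalized counts per Ensembl gene. The labels name cutadapt, STAR, HTSeq and GRCz11, whereas the paper's methods name another aligner and an earlier assembly. The annotation release and strand setting are not given in the sources used here. cDNA was amplified from little RNA with a SMART-Seq kit, which does not mark strand and can lose rare transcripts. The 5 summary rows of the thymus table, 28.4% of its reads, were left out.

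The 9 genes and all lists were chosen with earlier results of these data known. A gene was named from a list where it was 4-fold or more apart and at 10 CPM or more, or was a direct partner of one of the 9 genes; other genes given are members of the same lists, named for their family or role after their values were seen. Symbols came from a table that names 29201 of the 32520 genes, and list symbols without a match were tried without their paralog suffix. *tcf4* is also an older name of *tcf7l2*, which is a separate gene here.

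CPM, exact binomial intervals and the conditional binomial interval of a ratio were computed in Python 3.11.15 with scipy 1.17.1. Intervals of a shift between genes are normal approximations on the log scale. For calls, ranks, and a fold against 0 reads, counts of 3 or fewer per library were set at 3. Library scalings came from edgeR 4.0.16 (TMM) and DESeq2 1.42.0. No test between conditions was possible with 1 library each. Some genes chosen for the set and the lists are not reported here. No sequence was printed, since no sequence table was used here.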

Additional observations from a re-analysis of the deposited data

How the results depend on the processing

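No paired analysis was possible because both groups consist of a single library, which also could not be left out in turn. The number of genes at least 4-fold higher in the thymus library was 2, and it became 0 with TMM, 0 under size factors of DESeq2, and 0 at a threshold of 8-fold. The shares over all genes were 39.2%, 34.1%, 34.5% and 32.8%, in that order. The number stayed 2 without the 10 genes with most reads, at a threshold of 2-fold, and over genes with at least 10 reads. There the shares over all genes were 38.8%, 48.0% and 41.9%. The number of genes at least 4-fold higher in the myeloid library was 2, and it was 3 at a threshold of 2-fold, beside 21.9% and 30.0% of all genes. The number of the 9 genes at 1 CPM or more in the thymus library was 7, and 4 were at 5 CPM or more. For myeloid cells these numbers were 8 and 7. Of all 32520 genes, 12932 were at 1 CPM or more in thymus lymphocytes and 10719 in myeloid cells. No number over all genes is given at 5 CPM. Of 20 such counts of the 9 genes under other settings, 16 stayed within 1.5 times the main count, the 3 at a threshold of 2-fold included. None of the 45 ratios of the 9 genes under other scalings, an added 1 CPM or summed names changed sign. Most of them could not. Summing names left each ratio as it was, since each of the 9 genes matched 1 gene. An added 1 CPM cannot change a sign, and a scaling shifts all ratios alike, so it can change the sign of a small ratio only. Of 35 list medians under other settings, 19 moved by 0.1 or more. The median of the dendritic cell genes was 0.00, which fell on genes with 0 reads in both libraries, and became −0.52 over genes with at least 10 reads. The median of the ID and E protein genes went from −0.44 to 0.00 with TMM. That 0.00 is the value of *id4*, which had 0 reads in both libraries, so it does not show equal levels. For the PU.1 and C/EBP target genes, 0.84 became 1.95 over genes with at least 10 reads and 1.35 with TMM. For the other myeloid regulators, −1.31 became −1.95 and −1.01, in the same order. Levels were not scaled by length, as no exon lengths were used here, and a count of 0 bounds the reads but not transcripts lost before sequencing.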
